A study of Homo sapiens with 9 samples.

Results

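The genes examined here were 9 sensors and signalling factors of the innate response to foreign nucleic acid, chosen by symbol from the 58381 genes of the deposited tables. They were the RNA sensors DDX58 (RIG-I), IFIH1 (MDA5) and TLR3, the adaptors MAVS and TMEM173 (STING), the interferon-inducing factors IRF3 and IRF7, and IRF9 and STAT2. All 9 were found, and all 9 passed the filter on low counts. They were followed across 9 RNA-seq libraries of TC-32, an established human cell line of Ewing sarcoma, a tumour driven by the EWSR1::FLI1 fusion. The libraries formed 3 groups of 3: RFP, which carried the pLOC vector encoding red fluorescent protein (RFP) as control, and ETS1-Low and ETS1-High, which carried pLOC with a human ETS1 cDNA and expressed the transcription factor ETS1 at a lower and a higher level. The study asked what ETS1 regulates while the fusion is present, with the higher level chosen to match that of cells depleted of the fusion. All groups kept the endogenous fusion. The protocol attached to every library describes lentiviral transduction, puromycin selection and sorting of single cells, and the design text speaks of single cell clones. How many clones stand behind a group, and whether the RFP and ETS1-Low cells were clonal, is not given. Clone and ETS1 level therefore cannot be told apart. P-values weigh the difference between groups against the spread between libraries of a group, which may be technical.

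Cells detect viral and misplaced nucleic acid with a small set of sensors. RIG-I and MDA5 are cytosolic helicases that bind RNA and signal through MAVS on mitochondria, TLR3 binds double-stranded RNA in endosomes and signals through TICAM1, and STING relays the detection of cytosolic DNA by the enzyme cGAS. These routes activate the kinase TBK1, which phosphorylates IRF3 and IRF7 and thereby switches on type I interferon genes. Secreted interferon acts through its receptor and the kinases JAK1 and TYK2 to assemble ISGF3, a complex that contains STAT2 and IRF9. ISGF3 binds the interferon-stimulated response element (ISRE), and several of the sensors are themselves interferon-stimulated genes.

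The library totals ran from 39484704 to 46654734 expected counts. Levels are given as CPM (counts scaled to a common library size after TMM normalisation), and as mean ± SD of 3 libraries. ETS1 had 2.00 ± 0.174 CPM in RFP, 10.6 ± 0.298 in ETS1-Low and 19.1 ± 0.806 in ETS1-High, in the order of the labels without overlap. All 7 Ewing sarcoma markers examined (CD99, NKX2-2, NR0B1, STEAP1, LIPI, PAPPA and FLI1) had a mean of at least 1 FPKM in every group. The 8 leukocyte markers summed to between 0.58 and 2.67 FPKM per library, lowest in ETS1-High, and CD3E and CLEC4C had 0 counts in the 9 libraries. The 3 endothelial markers summed to 0.51 to 1.98 FPKM, with PECAM1 at 1.70 CPM in RFP, 3.69 in ETS1-Low and 5.16 in ETS1-High, and the 3 epithelial markers to 1.82 to 6.92 FPKM, highest in ETS1-Low. The part of these markers in the results was not tested. Changes were tested with the edgeR quasi-likelihood test over 17235 genes, and a gene was called at a Benjamini-Hochberg adjusted p under 0.05.

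Most of the tested genes moved between these groups, so a call by itself sets no gene apart. In ETS1-High versus RFP, 8 of the 9 genes were called, 6 higher and 2 lower, where 74.2% of all tested genes were called (37.0% higher and 37.2% lower). In ETS1-Low versus RFP the calls were 7, 6 higher and 1 lower, against 74.1% of all genes (37.9% and 36.2%). Between ETS1-High and ETS1-Low there were 7 calls, 5 higher and 2 lower in ETS1-High, against 59.2% of all genes (29.9% and 29.3%). Called in all 3 comparisons were 6 of the 9 (IFIH1, TLR3, TMEM173, IRF3, IRF9 and STAT2), as were 38.9% of all genes. The libraries of the groups did not overlap in CPM for 8, 7 and 7 of the 9, where the same held for 75.5%, 76.0% and 63.2% of all genes. The median change of the 9 genes was 0.76, 0.35 and 0.21 log2 units in the order of these comparisons, beside -0.01, 0.01 and -0.00 over all tested genes. A change of at least 2-fold was reached by IFIH1 and TLR3 alone among the 9, in both comparisons with RFP, where 9.64% and 8.47% of all genes were called and at least 2-fold higher. Between the ETS1 groups none of the 9 reached it, and 6.05% of all genes did so upwards. Both comparisons use the same RFP libraries.

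The large changes were those of IFIH1 and TLR3. The promoters of the 3 RNA sensors were in the RefSeq table, as were those of MAVS, IRF9 and STAT2 (build GRCh38.p14, 250 bases before to 50 after the start of each gene). They were searched on both strands for the ISRE core, GAAA followed after any 2 bases by GAAA. Of the 35116 promoters of this length in the table, 3.57% held a match. Among the 6 promoters, those of IFIH1 and TLR3 held one. Any part of the motif in the changes of these genes was not tested. The stretches are shown 5′ to 3′ on the gene's strand with the matches in capitals (on the opposite strand GAAA reads TTTC). For IFIH1 the stretch is the 165 bases before the start, at chr2:162318685-162318849 on the minus strand, with 2 overlapping matches at its far end and 1 that begins 21 bases before the start. For TLR3 it is chr4:186069096-186069161 on the plus strand, and its match spans the RefSeq start, from 4 bases before it to the sixth transcribed base. GENCODE v44 places the start of TLR3 further upstream, at 186068911. A match describes these letters and is not evidence of binding.
IFIH1: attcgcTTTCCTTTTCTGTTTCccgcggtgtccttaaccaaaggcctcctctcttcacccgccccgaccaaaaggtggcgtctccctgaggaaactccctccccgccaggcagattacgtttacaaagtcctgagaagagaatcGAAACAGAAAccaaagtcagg
TLR3: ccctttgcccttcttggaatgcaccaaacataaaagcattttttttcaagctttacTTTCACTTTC

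The DDX58 promoter held no ISRE core but 3 matches to the shorter IRF core AANNGAAA, a motif added after these sequences were seen and held by 22.8% of all promoters. It is shown at chr9:32526317-32526406, minus strand, with these matches in capitals. The ISRE core contains this shorter core, so each ISRE match of IFIH1 and TLR3 holds it by construction. IFIH1 held it once more, from 25 bases before the start and overlapping an ISRE match. The IRF core also stood once in IRF9, shown at chr14:24161205-24161264, plus strand. STAT2 held the ETS core CGGAAGT, also added later and present in 6.83% of promoters; the stretch shown is chr12:56360173-56360232, minus strand, where the match reads ACTTCCG.
DDX58: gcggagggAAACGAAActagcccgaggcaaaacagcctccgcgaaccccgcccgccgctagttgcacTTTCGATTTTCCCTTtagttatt
IRF9: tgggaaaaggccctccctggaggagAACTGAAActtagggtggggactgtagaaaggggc
STAT2: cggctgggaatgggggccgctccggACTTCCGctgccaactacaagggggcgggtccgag
None of the 6 promoters held the ETS consensus CCGGAAGT (4.14% of promoters) or GGAA 3 times in a row (0.0854%), the kind of repeat through which EWSR1::FLI1 is known to act. The MAVS promoter held none of the 5 motifs. GENCODE v44 places the start of IRF9 at 24161234 and that of STAT2 at 56360203, each within the match shown in capitals.

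**Figure D1:**
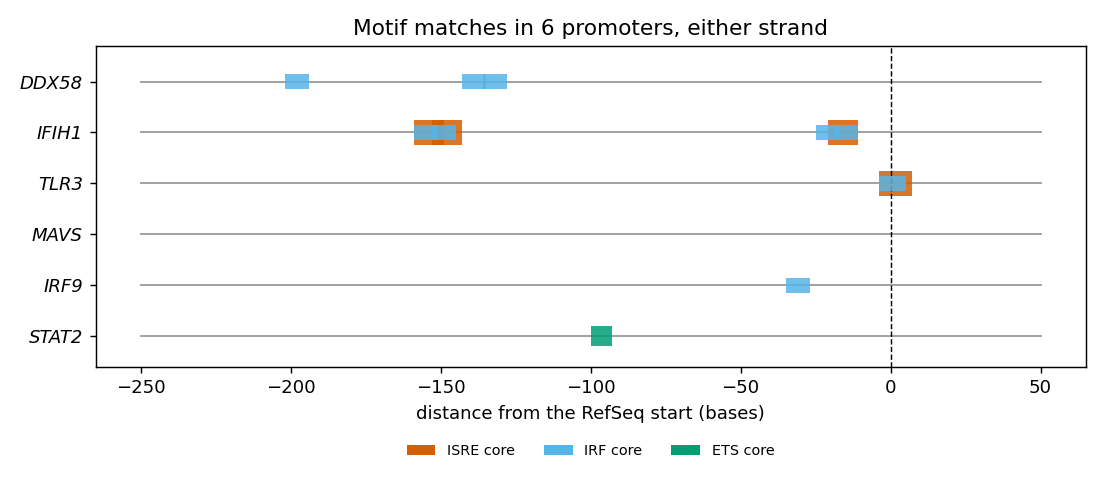
Motif matches in the promoters of the 6 genes found in the RefSeq table, by distance in bases from the RefSeq start (dashed line); each coloured block is a match on either strand. ISRE core matches lie in IFIH1 and TLR3, and the shorter IRF core lies in DDX58, IFIH1, TLR3 and IRF9. Every ISRE core match contains an IRF core match.

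IFIH1 encodes MDA5, the sensor of long double-stranded RNA (ENSG00000115267.5; chromosome 2, 162267074 to 162318684 of build GRCh38, on the minus strand). In the RFP libraries it had 12, 12 and 20 counts, or 0.249, 0.256 and 0.41 CPM. It had 16.8, 16.3 and 16.0 CPM in ETS1-Low and 19.1, 18.8 and 18.8 CPM in ETS1-High. The gene was thus close to silent in the control and expressed in every ETS1 library, with no overlap between any of the groups. The rise was 53.1-fold in ETS1-Low (log2 fold change 5.73, SE 0.12; adjusted p 3.54e-40, edgeR) and 61.2-fold in ETS1-High (5.94, SE 0.12; adjusted p 2.56e-41, edgeR). Only 54 of the 17235 tested genes had a larger log2 fold change in ETS1-High versus RFP. The further step from ETS1-Low to ETS1-High was small, 0.21 (95% interval 0.08 to 0.33; adjusted p 0.00452, edgeR), and it was not called on log2(FPKM + 0.1) values (0.23; adjusted p 0.10, limma).

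TLR3, the endosomal receptor of double-stranded RNA (ENSG00000164342.12; chromosome 4, 186068911 to 186088073, plus strand), rose in steps. It had 0.831, 0.896 and 0.922 CPM in RFP, 7.06, 6.87 and 7.47 in ETS1-Low, and 11.7, 11.7 and 12.7 in ETS1-High. Each group stood clear of the next. Against RFP the change was 3.01 log2 units (SE 0.12) in ETS1-Low and 3.76 (SE 0.11) in ETS1-High, 8.05-fold and 13.6-fold, with adjusted p of 1.3e-28 and 3.89e-34 in edgeR. From ETS1-Low to ETS1-High it rose by a further 0.75 (SE 0.08; adjusted p 8.33e-12, edgeR). Genes called higher in both of these steps made up 9.48% of all tested genes, and among the 9 they were IFIH1, TLR3, IRF9 and STAT2.

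DDX58 encodes RIG-I, which recognises short RNA with a free 5′ triphosphate (ENSG00000107201.9, named RIGI in newer annotation; chromosome 9, 32455302 to 32526208, minus strand). Its values were 5.20, 5.63 and 6.11 CPM in RFP and 6.14, 6.09 and 5.84 CPM in ETS1-Low, which overlapped. The 3 ETS1-High libraries each had 10.7 CPM, above every other library. DDX58 was 1.89-fold higher in ETS1-High than in RFP (log2 fold change 0.92, SE 0.08; adjusted p 7.02e-15, edgeR) and exceeded its ETS1-Low level by 0.83 (SE 0.08; adjusted p 7.52e-13, edgeR). Between ETS1-Low and RFP the difference was 0.09, with a 95% interval of -0.08 to 0.26 (adjusted p 0.329, edgeR). DDX58 shares 4471 exonic bases with another gene on its strand in GENCODE v44 (ENSG00000288684). Its 9 expected counts were all whole, which cannot settle the part of that gene, since the annotation used for counting is not given. The 3 RNA sensors differed in where they moved: IFIH1 mostly between RFP and ETS1-Low, DDX58 between ETS1-Low and ETS1-High, and TLR3 in both steps.

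**Figure D2:**
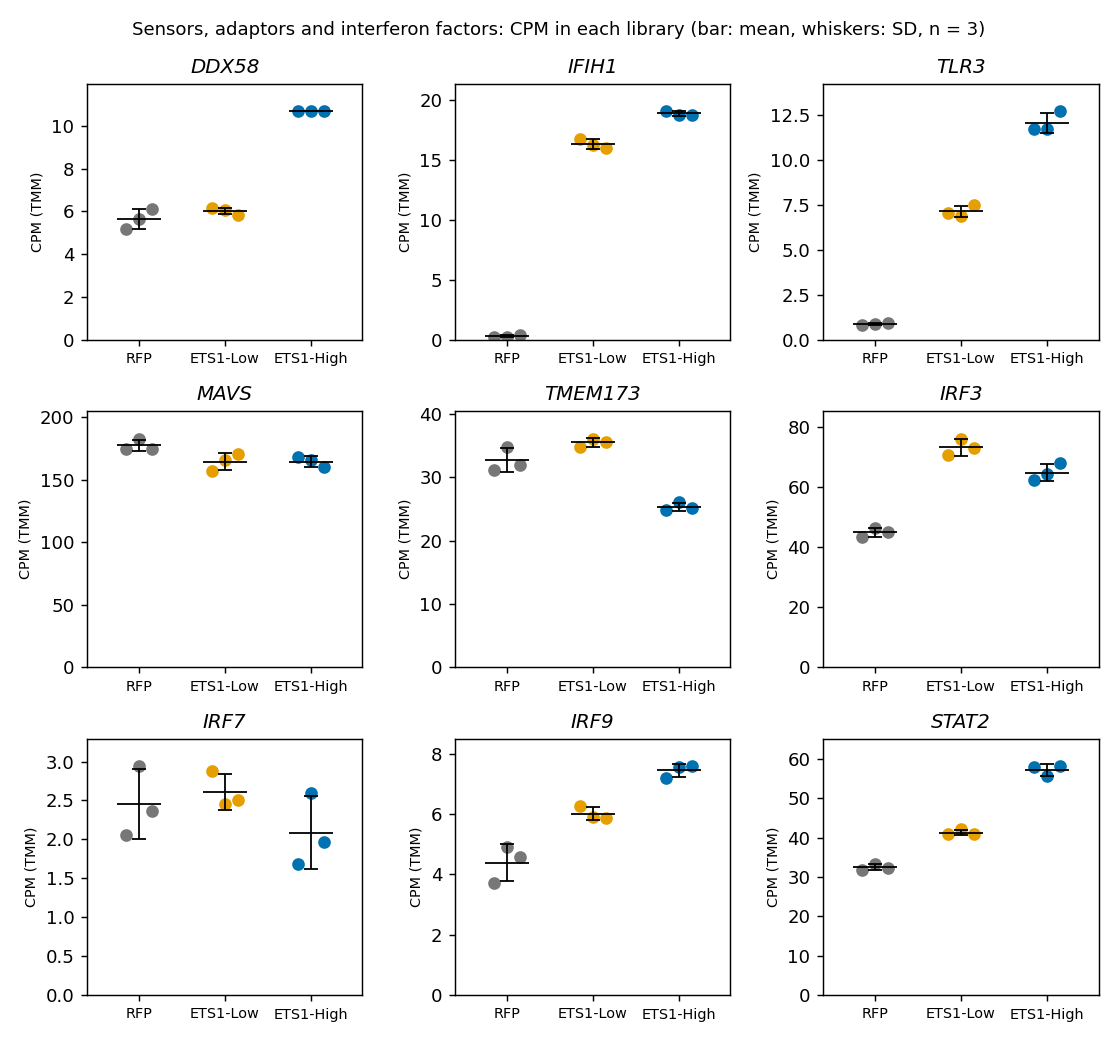
CPM of the 9 genes in each of the 9 libraries (vertical axes from 0, one scale per gene; points are libraries, the bar is the group mean and the whiskers the SD, n = 3). The ETS1 groups stand far above RFP in IFIH1 and TLR3, only ETS1-High stands apart in DDX58, and the groups overlap in IRF7.

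The chromosomal surroundings of these genes also shifted, and the values are given beside them. The tested genes with a mean log2 CPM above 1 that start within 10 Mb of IFIH1, 47 in number, showed a median change of 0.79 log2 units in the ETS1-High comparison with RFP and 0.61 in that of ETS1-Low, and 1 of them exceeded IFIH1 in each comparison. Around TLR3 the median of 25 genes was 0.62 and 0.59, and none of them exceeded TLR3. The 74 neighbours of DDX58 had a median of -0.50 for ETS1-Low versus RFP, where 94.6% of them were lower, and of 0.42 in ETS1-High versus ETS1-Low. DDX58 stood 0.59 and 0.40 above these medians. The step of IFIH1 from ETS1-Low to ETS1-High, 0.21, equalled its local median of 0.21. The part of these regional shifts in the results was not tested.

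The adaptor on the RNA route, MAVS, moved little (ENSG00000088888.17; chromosome 20, 3846799 to 3876123, plus strand). It had 175, 183 and 175 CPM in RFP, 157, 166 and 171 in ETS1-Low and 168, 166 and 160 in ETS1-High. The RFP libraries were the highest, but by little, and 6 of the 9 expected counts were not whole. The change was -0.11 log2 units (SE 0.03) in both comparisons with RFP, with adjusted p of 0.00136 for ETS1-High and 0.00198 for ETS1-Low in edgeR. Leaving out replicate 1 of ETS1-Low gave -0.07 there, with an adjusted p of 0.0557 in edgeR. ETS1-High and ETS1-Low differed by -0.00 (95% interval -0.07 to 0.06; adjusted p 0.93, edgeR).

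TMEM173 encodes STING, the adaptor of the DNA route (ENSG00000184584.12, STING1 in newer annotation; chromosome 5, 139475533 to 139482935, minus strand). It had 31.2, 34.8 and 32 CPM in RFP, 34.8, 36.1 and 35.6 in ETS1-Low, and 24.9, 26.1 and 25.1 in ETS1-High. The ETS1-High libraries were the lowest, and the highest RFP library lay just under the lowest ETS1-Low library. STING fell in ETS1-High by 0.37 on the log2 scale against RFP (SE 0.04; adjusted p 3.7e-10, edgeR) and by 0.49 against ETS1-Low (SE 0.04; adjusted p 1.58e-13, edgeR). Its 110 neighbours had medians of -0.32 and 0.04 in these comparisons, so the fall against RFP was close to that of the region and the fall against ETS1-Low was not. In ETS1-Low versus RFP the fitted value was 0.12 (adjusted p 0.0105, edgeR). It was no longer called, at a similar size, in the DESeq2 test (0.10; adjusted p 0.0916) and without RFP replicate 1 (0.09; adjusted p 0.0979, edgeR) or 3 (0.11; adjusted p 0.0563, edgeR), and it became -0.01 when libraries were scaled by their totals.

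IRF3 and IRF7, the factors that switch on interferon genes, behaved differently from each other. IRF3 (ENSG00000126456.15; chromosome 19, 49659569 to 49665875, minus strand), which is made constitutively in most cells, had 43.3, 46.4 and 45.0 CPM in RFP, 70.5, 76.1 and 73.1 in ETS1-Low and 62.3, 64.3 and 67.9 in ETS1-High. Both ETS1 groups were clear of RFP, and ETS1-Low was the higher of them. IRF3 rose by 0.71 (SE 0.04; adjusted p 1.13e-22, edgeR) in ETS1-Low and 0.53 (SE 0.04; adjusted p 8.53e-18, edgeR) in ETS1-High, and ETS1-High lay 0.18 below ETS1-Low on the log2 scale (-0.18; adjusted p 4.92e-05, edgeR), a step not called on FPKM values (-0.11; adjusted p 0.0795, limma). The 368 neighbours of IRF3 had medians of 0.40 and 0.38 against RFP, and 65 and 114 of them exceeded it. IRF3 shares 734 exonic bases with BCL2L12 on the other strand, and whether the counting used strand is not given in the sources used here. BCL2L12 had log2 fold changes of 0.42 in ETS1-Low and -0.01 in ETS1-High versus RFP, and its part in the IRF3 counts, 4 of 9 of which were not whole, was not tested.

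IRF7, the interferon-inducible amplifier of type I interferon production (ENSG00000185507.19; chromosome 11, 612553 to 615983, minus strand), was low and showed no called change. It had 2.06, 2.94 and 2.36 CPM in RFP, 2.88, 2.45 and 2.51 in ETS1-Low, and 1.68, 2.6 and 1.97 in ETS1-High, from 66 to 138 counts per library. The 3 groups overlapped. The log2 fold change was -0.23 in ETS1-High versus RFP (95% interval -0.54 to 0.09; adjusted p 0.187, edgeR) and 0.09 in ETS1-Low (-0.22 to 0.40; adjusted p 0.603, edgeR). Between the ETS1 groups it was -0.32 (-0.63 to 0.00; adjusted p 0.081, edgeR). The estimates moved with single libraries, in both directions. Without ETS1-High replicate 2, IRF7 was called lower in ETS1-High. The changes were then -0.42 against RFP (adjusted p 0.0295, edgeR) and -0.51 against ETS1-Low (adjusted p 0.0117, edgeR). The change against RFP shrank to -0.08 without RFP replicate 2 (adjusted p 0.693, edgeR). It was -0.10 without ETS1-High replicate 1 (adjusted p 0.621, edgeR). No alternative called IRF7 higher, while its 91 neighbours had medians of 0.31 for ETS1-High and 0.37 for ETS1-Low versus RFP.

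STAT2 and IRF9, which act together in ISGF3, were both higher in the ETS1 groups. STAT2 (ENSG00000170581.13; chromosome 12, 56341597 to 56360203, minus strand) had 31.8, 33.4 and 32.3 CPM in RFP, 40.9, 42.2 and 40.9 in ETS1-Low and 58.1, 55.6 and 58.2 in ETS1-High. The groups stood in order of ETS1 level without overlap. Against RFP it rose by 0.82 (SE 0.04; adjusted p 3.42e-25, edgeR) in ETS1-High, 1.76-fold, and by 0.35 (SE 0.04; adjusted p 3.64e-11, edgeR) in ETS1-Low. ETS1-High exceeded ETS1-Low by 0.47 (adjusted p 1.33e-15, edgeR). The local medians lay between -0.02 and 0.04. On FPKM values STAT2 did not differ between ETS1-Low and RFP, with 0.01 on the log2(FPKM + 1) scale (adjusted p 0.846, limma).

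IRF9, the DNA-binding subunit of ISGF3 (ENSG00000213928.8; chromosome 14, 24161234 to 24168043, plus strand), was measured at 3.70, 4.91 and 4.57 CPM in the RFP libraries, 6.27, 5.89 and 5.88 in ETS1-Low and 7.21, 7.56 and 7.59 in ETS1-High. The order was that of STAT2, again with no overlap. The log2 fold changes were 0.76 (SE 0.09; adjusted p 3.41e-10, edgeR) in ETS1-High and 0.45 (SE 0.10; adjusted p 4.21e-05, edgeR) in ETS1-Low versus RFP, and 0.31 (adjusted p 0.00287, edgeR) between the ETS1 groups. Its level is uncertain. IRF9 shares 1544 exonic bases with another protein-coding gene on its strand (ENSG00000259529.1), and 8 of its 9 expected counts were not whole, so reads were divided between genes. That gene fell by 0.31 and 0.40 on the log2 scale in ETS1-High and ETS1-Low, and on FPKM values IRF9 was not called in ETS1-Low versus RFP (0.15 on the log2(FPKM + 1) scale; adjusted p 0.243, limma) or between the ETS1 groups (0.15; adjusted p 0.30, limma). In ETS1-High versus RFP the FPKM values gave 0.30 (adjusted p 0.0337, limma), and the same 0.30 was not called without a filter on low values (adjusted p 0.0939, limma).

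**Figure D3:**
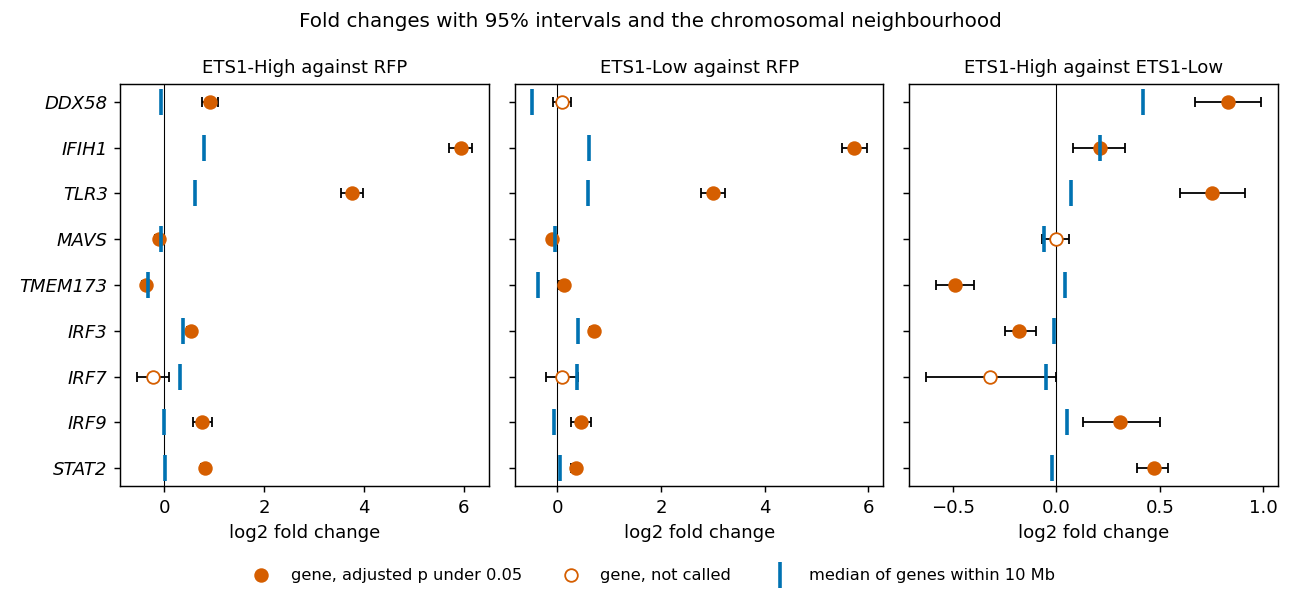
Fitted log2 fold changes of the 9 genes with 95% intervals in the 3 comparisons (filled circles called, open circles not called), and the median log2 fold change of the tested genes within 10 Mb (blue bars). IFIH1 and TLR3 lie far to the right of their neighbourhoods against RFP, while MAVS and, in ETS1-High versus RFP, TMEM173 lie on theirs. The third panel has its own, narrower scale.

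Levels of different genes can be compared only per length, for which the deposited FPKM values were used. In RFP the order was IRF3 (38.1 ± 1.89 FPKM), TMEM173 (24.7 ± 2.05), STAT2 (20.0 ± 0.964), MAVS (16.3 ± 0.586), IRF9 (5.38 ± 0.739), IRF7 (2.03 ± 0.408), DDX58 (1.45 ± 0.111), TLR3 (0.323 ± 0.0115) and IFIH1 (0.107 ± 0.0208), and no neighbours in this order overlapped. The control cells thus held the transcripts of the adaptors and of IRF3, and very little of the RNA sensors. In ETS1-High the order was IRF3 (53.0 ± 2.25 FPKM), STAT2 (27.5 ± 0.718), TMEM173 (17.0 ± 1.16), MAVS (14 ± 0.326), IRF9 (6.83 ± 0.246), IFIH1 (6.35 ± 0.293), TLR3 (3.65 ± 0.361), DDX58 (2.53 ± 0.0346) and IRF7 (1.57 ± 0.408). IRF9 and IFIH1 overlapped there, and so they did in ETS1-Low, as did TLR3 and IRF7. STAT2 and TMEM173 had changed places between RFP and ETS1-High.

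Together the 3 sensors summed to 1.75 to 1.99 FPKM in the RFP libraries, 8.81 to 9.76 in ETS1-Low and 12.0 to 13.1 in ETS1-High. That was 1.64% to 1.86% of the summed FPKM of the 9 genes in RFP, 6.46% to 7.18% in ETS1-Low and 8.89% to 9.90% in ETS1-High. The balance between the cytosolic sensors turned over. The ratio of IFIH1 to DDX58 was 0.0734 ± 0.00913 in RFP, 3.85 ± 0.20 in ETS1-Low and 2.51 ± 0.0833 in ETS1-High (SD, n = 3, ratio of FPKM).

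**Figure D4:**
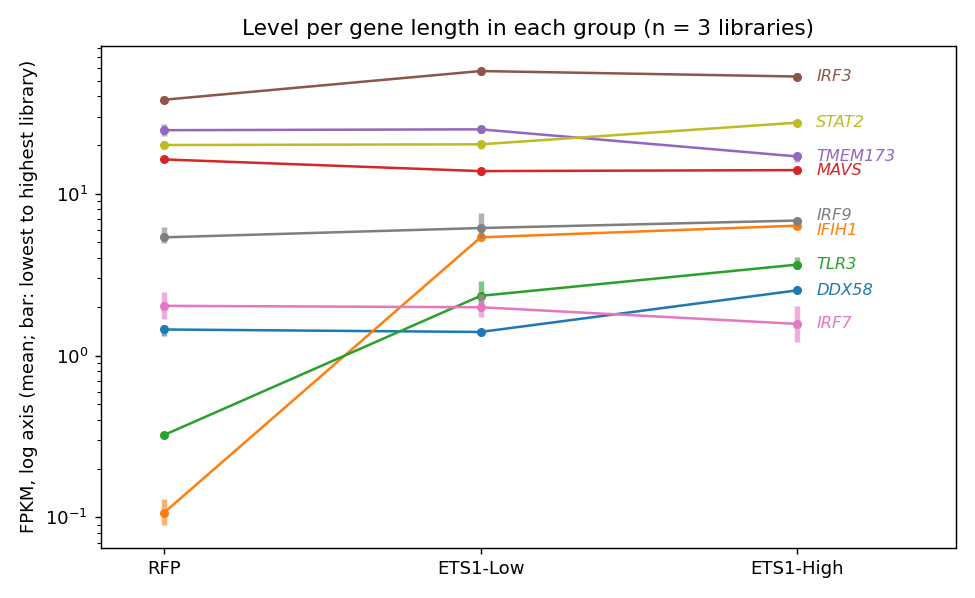
Level per gene length of the 9 genes in each group (vertical log axis in FPKM; circles are means of 3 libraries and bars run from the lowest to the highest library). IFIH1 and TLR3, the lowest in RFP, pass DDX58 in both ETS1 groups, while IRF3 is highest throughout.

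The rest of the pathway was read from a list of 86 genes, of which 64 were tested. In ETS1-High versus RFP 58 of the 64 were called, 40 higher and 18 lower, with a median of 0.26, beside 74.2% of all tested genes called, 37.0% higher and 37.2% lower. In ETS1-Low versus RFP 52 were called, 34 higher and 18 lower (median 0.21), beside 37.9% and 36.2% of all genes. In ETS1-High versus ETS1-Low 44 were called, 26 higher and 18 lower (median 0.05), beside 29.9% and 29.3% of all genes. The split depended on scaling: on library totals the calls in ETS1-High versus RFP were 33 higher and 21 lower. With limma on FPKM values (pseudocount 1, mean of at least 1), which tested 60 of the genes, they were 28 and 20. The shares of all tested genes given here are also the background of the counts by role that follow.

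At the head of the pathway, 8 of 15 other sensors were tested, and 6 were higher and 2 lower in ETS1-High versus RFP (37.0% and 37.2% of all genes), 5 and 2 in ETS1-Low versus RFP. DHX58 (LGP2), the third helicase of the RIG-I family and a regulator of MDA5, rose from 1.15 ± 0.348 CPM in RFP to 11.3 ± 0.381 in ETS1-Low and 7.73 ± 0.343 in ETS1-High, by 3.30 and 2.75 on the log2 scale (adjusted p 1.11e-28 and 7.22e-25, edgeR). DDX60, an interferon-inducible helicase, rose from 2.23 ± 0.122 CPM to 16.4 ± 0.507 and 17.3 ± 0.559. LRRFIP1 rose by 0.40 in ETS1-High (adjusted p 1.1e-16, edgeR). cGAS, the DNA sensor upstream of STING (listed as MB21D1), had at most 4 counts in any library, and ZBP1 had 0. TLR4, TLR7, TLR8 and TLR9 had at most 3 counts per library, so TLR3 was the only one of the 5 Toll-like receptors examined that passed the filter.

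Between sensor and interferon gene, 14 of 15 adaptors and kinases were tested, with 8 called higher and 5 lower in ETS1-High (37.0% and 37.2% of all genes) and 6 and 5 in ETS1-Low, each versus RFP. TICAM1, the adaptor that TLR3 uses, rose from 6.73 ± 0.219 CPM in RFP to 14.4 ± 0.463 in ETS1-Low and 15.7 ± 0.159 in ETS1-High (log2 fold changes 1.09 and 1.22; adjusted p 4.77e-20 and 3.79e-22, edgeR). UNC93B1, which escorts endosomal Toll-like receptors, rose from 3.96 ± 0.404 to 11.6 ± 0.683 and 15.1 ± 0.941 CPM. MYD88, the adaptor of most other Toll-like receptors, rose by 1.16 in ETS1-High, and ZC3HAV1, an antiviral zinc finger protein, by 1.76. The kinase TBK1 differed little, with 36.7 ± 1.54 CPM in RFP and 41.0 ± 1.14 in ETS1-High (0.16; adjusted p 0.000456, edgeR). Its relative IKBKE fell by 1.01 in ETS1-Low and by 0.97 in ETS1-High on the log2 scale (adjusted p 3.46e-15 and 9.56e-15, edgeR).

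The interferon genes examined were not detected, apart from a single count, and of the IFNA genes only IFNA1 and IFNA2 were examined. Of 9 examined (IFNA1, IFNA2, IFNB1, IFNK, IFNE, IFNL1, IFNL2, IFNL3 and IFNG), 8 had 0 counts in every library and IFNA1 had 1 count in a single library. A count of 0 allows up to 3 counts, or 0.0615 to 0.0793 CPM depending on the library, and this limit covers counting error only.

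The receptors and kinases that answer interferon were present in all groups, and of 9 tested, 7 were higher and none lower in ETS1-High versus RFP (37.0% and 37.2% of all genes). In ETS1-Low versus RFP 6 were higher and 1 lower, the kinase JAK2 (-0.43; adjusted p 4.78e-12, edgeR), named after its value was seen. JAK1 rose from 280 ± 8.07 CPM in RFP to 617 ± 6.84 in ETS1-Low and 531 ± 9.24 in ETS1-High (log2 fold changes 1.14 and 0.93; adjusted p 4.49e-36 and 3.78e-32, edgeR). IFNAR1 and TYK2 rose by 0.50 and 0.37 in ETS1-High, while IFNAR2 had 18.3 ± 0.669 CPM in RFP and 18.9 ± 0.360 in ETS1-High and was not called (0.05; adjusted p 0.447, edgeR). IFNLR1, the specific chain of the type III interferon receptor, rose from 2.32 ± 0.220 CPM to 20.2 ± 0.403 in ETS1-Low and 16.4 ± 0.845 in ETS1-High.

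Among the transcription factors, 13 of 17 were tested, with 8 higher and 5 lower in ETS1-High versus RFP (37.0% and 37.2% of all genes) and 7 and 5 in ETS1-Low versus RFP. IRF1, an activator of interferon-stimulated genes, had 5.06 ± 0.159 CPM in RFP, 7.17 ± 0.793 in ETS1-Low and 24.3 ± 0.636 in ETS1-High. Like DDX58, it made most of its rise between the ETS1 groups (1.76; adjusted p 1.87e-27, edgeR). IRF2 rose by 1.29 and 1.48 in ETS1-Low and ETS1-High. IRF4 and IRF8 had at most 12 counts in any library.

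Of 20 negative regulators and nucleases tested, 11 were higher and 6 lower in ETS1-High versus RFP (37.0% and 37.2% of all genes), and 10 and 5 in ETS1-Low versus RFP. USP18, which shuts off the interferon receptor and is itself interferon-inducible, rose from 5.39 ± 0.267 CPM to 19.6 ± 0.457 in ETS1-Low and 18.3 ± 0.672 in ETS1-High. TNFAIP3 rose by 0.79 and 1.56 in ETS1-Low and ETS1-High. CYLD, a deubiquitinase that restrains RIG-I, fell by 1.35 and 0.79 on the log2 scale (adjusted p 6.19e-33 and 4.02e-24, edgeR).

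**Figure D5:**
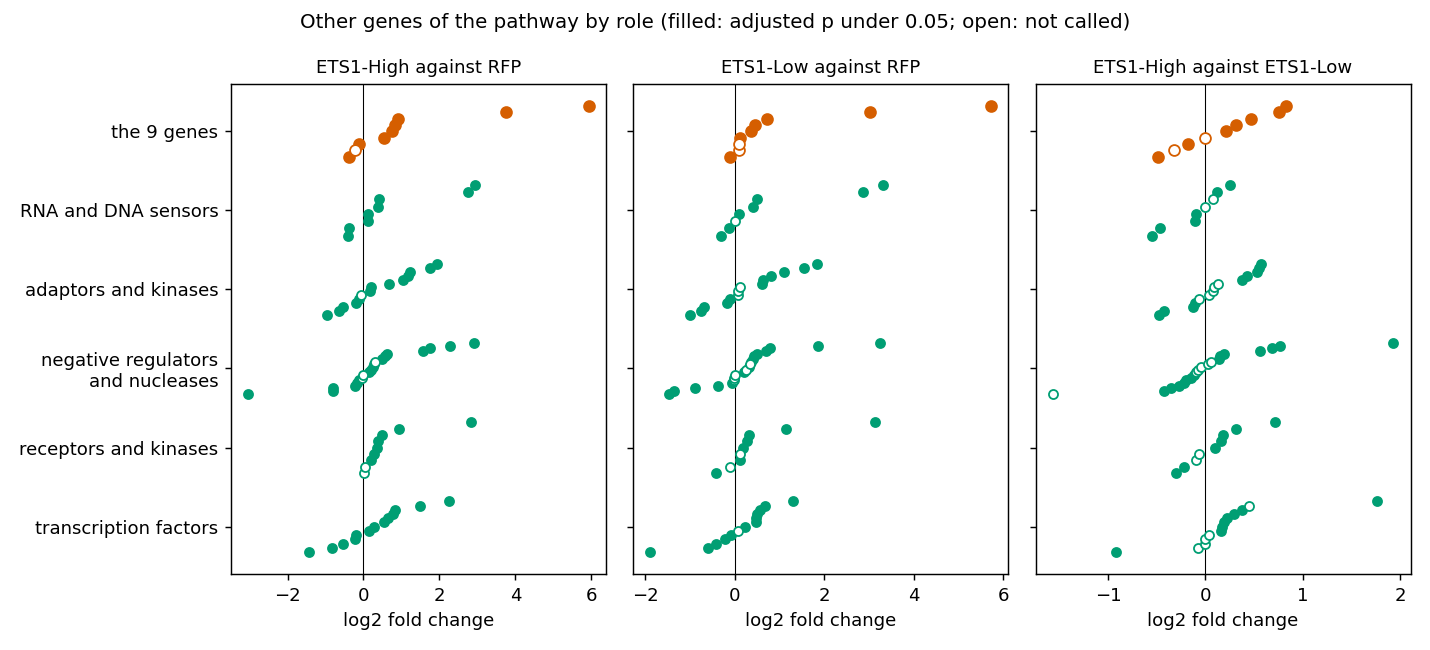
Log2 fold changes of the 9 genes (orange) and of the 64 tested genes of the pathway list by role (green) in the 3 comparisons; filled circles were called and open circles were not. Most roles hold genes on both sides of 0, and the third panel has a narrower scale.

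The tested genes whose profile over the 9 libraries lay closest to each of the 9 were then found, by the root mean square difference of log2 CPM after centring each gene on its own mean, among 13703 genes with a mean of at least 1 CPM. The libraries form 3 separate groups, so closeness largely means similar group means. TLR3 lay closest to APCDD1 (0.065), and the next of all genes was the interferon-stimulated TRIM22 (0.112), with 4.64 ± 0.252 CPM in RFP, 38.4 ± 1.31 in ETS1-Low and 68.9 ± 1.02 in ETS1-High. IFIH1 lay closest to ALDH1A1 (0.183), which rose from 45.6 ± 1.28 CPM to 2360 ± 39.9 and 2640 ± 45.4. Its closest gene of the pathway and interferon-target lists was BST2, at a wide distance of 0.886. DDX58 lay closest to ERN1 (0.044), with 26.8 ± 1.11, 28.3 ± 0.966 and 49.9 ± 1.19 CPM. STAT2 and IRF9 were each other's closest among the 9 genes (0.117), and both had ATF2 as the closest gene of the lists, with 92 and 47 other genes closer. For TMEM173 (0.060, 25 genes closer) and IRF7 (0.204, 324 closer) that gene was the DNA sensor IFI16, which had 186 ± 1.98, 198 ± 7.01 and 142 ± 2.27 CPM. The distance of IRF7 was smaller than its own SD between libraries of a group (0.248), and IRF7 was called in no comparison. Among the list genes IRF3 was closest to TRIM25 (0.077), a ubiquitin ligase acting on RIG-I, and MAVS to IRF2BP2 (0.054), with 121 and 119 other genes closer.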

How the data were processed

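The labels give 9 RNA-seq libraries of TC-32 cells in 3 groups, made with a stranded mRNA kit. The authors deposited RSEM expected counts and RSEM FPKM per gene, per the names of the deposited files and per the file headers. The submitters' processing notes name cutadapt 4.4, STAR 2.7.3, featureCounts, Subread 2.0.3, limma 3.38.3 and GRCh38, without roles. Between 9.00% and 10.3% of the deposited expected counts per library were not whole. Columns were matched to libraries by name, with L and H read as Low and High.

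Expected counts were rounded and fitted in edgeR 4.0.16 (R 4.3.3; TMM, filterByExpr by group, glmQLFit robust, glmQLFTest) with all 9 libraries and the group as factor. SE is the log2 fold change divided by the root of the F statistic. P-values were adjusted by Benjamini-Hochberg over 17235 genes. The script was tested on simulated data. Replicate pairs differed beyond sampling noise (chi-square per gene 2.66 to 5.19), so each library counted once.

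Positions and neighbours came from GENCODE v44 by gene identifier (99.2% of tested genes found), promoters from RefSeq (6 of the 9 genes matched). Alternatives were DESeq2 1.42.0, its size factors, other filters, the replicate block, 2-group fits, leaving out each library, limma 3.58.1 on log2(FPKM + 1) or log2(FPKM + 0.1), and, added after seeing the data, library totals. The 9 genes and the lists were chosen with earlier results of these data known. Named genes were the 9, fixed pathway genes, up to 3 per role ranked by p for ETS1-High versus RFP (mean of at least 100 counts), and the closest profiles; results for some of the named genes are not reported here.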

Additional observations from a re-analysis of the deposited data

Results flagged for a closer look

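ETS1-High and ETS1-Low differed by the direct edgeR test in 7 of the 9 genes, where 59.2% of all tested genes did. ETS1-High was the higher group in DDX58 (log2 fold change 0.83), TLR3 (0.75), STAT2 (0.47), IRF9 (0.31) and IFIH1 (0.21). It was the lower group in TMEM173 (-0.49) and IRF3 (-0.18). DDX58 overlapped between RFP and ETS1-Low, and its neighbours on chromosome 9 had a median of 0.42 between the ETS1 groups. TMEM173 was below RFP in ETS1-High, and its difference between ETS1-Low and RFP depended on scaling. Groups of 3 libraries are too small for a check of single outlying libraries.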

How the results depend on the processing

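Calls of the 9 genes in ETS1-High versus RFP numbered 8 (7 to 9 over the alternatives), those in ETS1-Low versus RFP 7 and those in ETS1-High versus ETS1-Low 7. With the replicate block they numbered 8, 7 and 7, and the block changed no call among the 9 genes. Same-numbered libraries did not deviate together (correlations of -0.03 to 0.02, none of 9 pairs above 0.1). Whether same-numbered libraries were handled together is not given, and these correlations cannot tell. Without each library in turn the ranges were 8 to 9, 6 to 7 and 7 to 8. In ETS1-Low versus RFP, limma on FPKM values called 4 of the 9 genes under each of its 3 settings. In ETS1-High versus ETS1-Low it called 4 with a pseudocount of 0.1. The cause was not tested. Scaling by library totals moved the median of all genes by -0.10 for ETS1-High and -0.13 for ETS1-Low versus RFP, and TMEM173 in ETS1-Low versus RFP from 0.12 to -0.01 with it. IFIH1 and TLR3 were called higher versus RFP under all alternatives run. Depth limits IRF7 (66 to 138 counts) and IFIH1 in RFP (12 to 20).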

Other observations

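Genes that interferon induces were examined as a readout, from a list of 32 that earlier results of these data had already shown to rise. In ETS1-High versus RFP all 32 were called, 28 higher and 4 lower, with a median of 1.60 log2 units, beside 74.2% of all tested genes called, 37.0% higher and 37.2% lower. In ETS1-Low versus RFP 25 were higher and 4 lower (median 1.18; 37.9% and 36.2% of all genes), and in ETS1-High versus ETS1-Low 20 were higher and 5 lower (median 0.26; 29.9% and 29.3% of all genes). The 4 lower in ETS1-Low, named after their values were seen, were IFIT1, IFITM2, IFI44L and HERC5. IFIT1 had 4.37 CPM in RFP, 2.85 in ETS1-Low and 2.49 in ETS1-High, and IFITM2 had 4.11, 1.66 and 2.79. IFI44L had 0.495, 0.0163 and 3.86 CPM, and HERC5 had 0.236, 0.106 and 1.66. The ETS1-Low mean of IFI44L lay under the limit of 0.0615 to 0.0793 CPM given for 0 counts, and that of HERC5 just above it. The 4 lower in ETS1-High, also named afterwards, were IFIT1, IFITM2, IFIT5 and IFI27. BST2, the cell surface protein tetherin, had 1.53 ± 0.144 CPM in RFP, 78.8 ± 0.5 in ETS1-Low and 25.1 ± 0.442 in ETS1-High, and OAS3, which makes the activator of RNase L, had 9.41 ± 0.718, 71.7 ± 1.90 and 79.1 ± 3.14. Of the 26 list genes with a RefSeq promoter, 20 (76.9%) held the ISRE core, beside 3.57% of all promoters. Of 71 pathway genes with a promoter 10 (14.1%) did. The list of 32 was chosen as genes that interferon induces, so its share describes the choice of list and not these libraries. The 20 include genes called lower in ETS1-High versus RFP, such as IFIT1, and genes called higher, such as OAS3. Any part of the motif in these changes was not tested.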
